A study of Homo sapiens with 3 samples.

Results

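The comparison described here sets irradiated T24 cells carrying a short hairpin RNA (shRNA) against HDAC6 (RT + shHDAC6) beside irradiated T24 cells without it (RT), across all genes of the read count table. T24 is an established human bladder carcinoma line. The labels call the first HDAC6 KD + RT. The series holds 3 samples, and 2 of them enter this comparison. The third, not irradiated (Ctrl), is given as background. According to the labels both irradiated samples received 10 Gy, the hairpin was delivered by a lentiviral vector followed by puromycin selection, and a control pLKO.1 vector was used for comparison, whereas the text of the study calls the comparator parental cells. A single hairpin sequence was used, and the knockdown cells were a stably selected population, so an effect of HDAC6 cannot be told apart from one of this hairpin or of the selected population. With 1 library per condition, the spread between replicates is unknown and the differences are described without p-values. Of the 58381 genes in the table, 31682 had a count in either irradiated library and 13636 were measured well enough to describe, which here means a mean of at least 50 counts over the 3 libraries.

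HDAC6 is an unusual histone deacetylase, because it resides mainly in the cytoplasm and removes acetyl groups from α-tubulin, cortactin and the chaperone HSP90 rather than chiefly from histones. It also binds ubiquitin and carries misfolded proteins along microtubules to the aggresome. Loss of its activity is best known for raising tubulin acetylation and altering cell motility and chaperone function, effects that act on proteins and need not appear in RNA.

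Total counts were 35959265 for RT and 35424086 for RT + shHDAC6, beside 41811165 for Ctrl. Log2 ratios were taken after TMM scaling, which sets the bulk of genes near 0, and a gene was called higher or lower when it differed at least 1.5-fold. By this rule 511 of the 13636 measured genes (3.75%) were higher and 830 (6.09%) were lower in the cells with the hairpin. The median log2 ratio of all measured genes was -0.02, and 90.2% of them lay within 1.5-fold. A difference of at least 2-fold was seen for 142 higher and 338 lower genes, and one of at least 4-fold for 7 and 66. The falls were therefore both more frequent and larger than the rises. The higher share of falls depended on the scaling, since 38.1% of the calls were rises with TMM and 51.3% with library totals only, which moved every log2 ratio up by 0.084. The intervals printed with single genes are 95% Clopper-Pearson intervals for the share of a gene's reads that came from either library. They express counting error alone, and no molecular identifiers were used, so reads may be PCR copies.

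HDAC6 (ENSG00000094631, chromosome X, 48801377 to 48824982 in GRCh38) had 3098 counts without irradiation, 2383 after it and 2170 with the hairpin. Its log2 ratio between the irradiated libraries was -0.20 (interval -0.28 to -0.11), so the targeted mRNA stayed at 87.2% of its level in RT and was not called. The study itself reported reduced HDAC6 mRNA by qPCR in T24 cells with the hairpin. By Western blot it also reported reduced HDAC6 protein in such cells, with and without irradiation. The ratio here is that of 1 library a side, and the reason for the difference from those assays was not tested. Of the 16 deacetylase genes that were measured, 3 were called. HDAC4, a class IIa enzyme that shuttles between nucleus and cytoplasm, was lower with 543, 448 and 239 counts (-0.97, interval -1.20 to -0.74), although its gene lies in a region of chromosome 2 that was higher as a whole. Such triplets of counts are given throughout in the order Ctrl, RT, RT + shHDAC6, followed by the log2 ratio of the irradiated pair. HDAC9, another class IIa enzyme, was higher with 304, 351 and 707 counts (0.95, interval 0.76 to 1.14), and HDAC11, the only class IV enzyme, was higher with 468, 227 and 356 counts (0.59, interval 0.34 to 0.83). HDAC5 had a log2 ratio of 0.51, and the class I genes HDAC1, HDAC2, HDAC3 and HDAC8 and the sirtuins SIRT1, SIRT2, SIRT3, SIRT5, SIRT6 and SIRT7 lay between -0.11 and 0.14. Because a call required at least 1.5-fold, HDAC6, which was not called, differed less than each of the 3 called deacetylases by the rule itself.

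Markers of T24 as an epithelial line that has taken on mesenchymal features were present in every library. VIM, the intermediate filament of mesenchymal cells, had 121716, 74147 and 95822 counts, and KRT18, an epithelial filament, had 7336, 8362 and 9048. The uroplakins UPK1A, UPK1B, UPK2 and UPK3A, which mark terminally differentiated urothelium, had at most 18 counts in any library. The leukocyte markers PTPRC (120, 66 and 57 counts) and LYZ (198, 89 and 88 counts) were low, and the summed level of the endothelial markers PECAM1, CDH5 and VWF was between 14.5 and 23.1 CPM (counts relative to the TMM-scaled library size) in each library. None of these 5 was at 0 counts in any library. Transcripts that a bladder carcinoma line does not normally make were also present in all 3 libraries, and these were looked for after the data had been seen. The 214 immunoglobulin genes summed to 6747, 3156 and 4173 counts, and 17 of the 18 that were measured had a log2 ratio above 0 between the irradiated libraries, with a median of 0.43. Of 18 markers of immune, stromal, muscle, fat and blood cells, among them CD74 (1834, 830 and 1234 counts) and DCN (1085, 525 and 683 counts), 12 were measured and 10 of these lay above 0, with a median of 0.32. On summed CPM, this marker list stood at a log2 ratio of -0.67 in RT against Ctrl and of 0.39 in RT + shHDAC6 against RT. As sums, these transcripts were thus highest in Ctrl and lowest in RT. Among single markers, PTPRC and LYZ were lowest in RT + shHDAC6 and CD3E was lowest in Ctrl. The part of these transcripts in the results below was not tested. Bulk RNA also cannot tell fewer cells that express a gene from less RNA per cell.

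The medians of neighbouring genes shifted in blocks along the chromosomes, by less than the 1.5-fold of a call. Outside the runs described below lay 418 of the 511 higher and 631 of the 830 lower calls, against 85.85% of all measured genes. Each chromosome was divided into windows of 10 Mb, and 292 windows held at least 10 measured genes. In RT + shHDAC6 against RT, 62 windows had a median log2 ratio at least 0.15 from the median of all genes, 31 above and 31 below. They lay side by side: the values of neighbouring windows had a Pearson correlation of 0.63 over 269 pairs, against 0.15 for RT against Ctrl, where the window medians instead went with the GC content of the genes (correlation 0.57, against 0.08 for the irradiated pair). These correlations describe windows of the same libraries and carry no test. RT against Ctrl had 91 windows past the same limit, of which 35 had a neighbour past it on the same side, in runs of at most 3 windows. For the irradiated pair this held for 50 of the 62, in runs of up to 7, as the plot of window medians shows.

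Joining neighbouring windows on the same side gave 13 runs, 6 higher and 7 lower, a rule set after the windows had been seen. On chromosome 14 from 20 to 80 Mb, 259 of 314 genes lay above 0, with a median of 0.25 (a fold of 1.19) and quartiles of 0.10 and 0.36. On chromosome 13 from 30 to 120 Mb, 158 of 194 genes lay above 0, with a median of 0.29. Further higher runs lay on chromosome 2 from 220 Mb to its end (median 0.27), on chromosome 3 from 100 to 120 Mb (0.34) and from 130 to 160 Mb (0.27), and on chromosome 10 from its start to 30 Mb (0.25). Over the 6 higher runs together 80.84% of the genes lay above 0. The shift was thus spread over most genes of a region rather than a few, though its size varied and some genes went the other way.

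Lower runs had the same form. On chromosome 7 from 60 to 130 Mb, 82.6% of 321 genes lay below 0, with a median of -0.26, and from 20 to 50 Mb the median was -0.21 over 121 genes. Chromosome 12 up to 20 Mb had a median of -0.31 over 136 genes, chromosome 18 up to 20 Mb of -0.28 over 61, and chromosome 1 from 70 to 120 Mb of -0.27 over 230. The remaining lower runs were on chromosome 5 from 90 to 140 Mb (-0.22) and chromosome 4 from 160 to 180 Mb (-0.22). In RT against Ctrl the medians of the 13 regions lay between -0.10 and 0.07, and in RT + shHDAC6 against Ctrl 12 of the 13 were shifted to the same side by at least 0.17, the exception being the start of chromosome 10 at 0.04. Among genes with a mean of at least 1000 counts, where counting error is small, 95.1% of 143 genes in the chromosome 1 run lay below 0 and 90.5% of 157 in the chromosome 14 run lay above 0. The higher runs held 861 genes, of which 8.01% were called higher and 4.53% lower, and the lower runs held 1068 genes, of which 24 (2.25%) were called higher and 160 lower. Outside the runs 3.57% of 11707 genes were called higher and 5.39% lower. Subtracting from each gene the median of its 50 neighbours, an alternative chosen after seeing the data, left 433 of the 511 higher and 702 of the 830 lower calls in place.

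Beside position, the measured genes were described by 61 lists of pathway members and 23 gene families. The plot of list medians shows 3 broad zones: nuclear, translational and cell cycle lists close to the median of all genes, most lists of the secretory route and cell surface below it, and histone, keratin and immediate early genes above it. Collagens and laminins were an exception with a median above that of all genes, as were the families of Rab GTPases, sorting nexins and VPS proteins, serpins, and S100 proteins and annexins. Of the 12 measured serpins, however, 3 were called lower and 0 higher, and their summed CPM went from 2817 in RT to 1428 in RT + shHDAC6. At a mean of at least 200 counts their median of 0.15 became -0.083.

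Genes of the secretory route, through which proteins are threaded into the endoplasmic reticulum (ER), folded, glycosylated and sent on by the Golgi apparatus, were mostly lower with the hairpin, by small amounts each. Of 33 ER chaperones and disulphide isomerases 29 lay below 0, with a median log2 ratio of -0.37, and 6 were called lower and 0 higher, or 3 and 0 once the median of neighbouring genes was subtracted. CANX, the membrane-bound lectin chaperone calnexin, had 78401, 95125 and 81810 counts (-0.28), and CALR, its soluble relative, had 70176, 70670 and 58736 (-0.33). The called members were less abundant. FKBP9, a prolyl isomerase of the ER, had 3613, 4241 and 2287 counts (-0.95, interval -1.03 to -0.88). SIL1, the exchange factor that resets the chaperone BiP, had 1801, 2904 and 1733 counts (-0.81, interval -0.89 to -0.72). Both genes lie in lower runs, FKBP9 on chromosome 7 and SIL1 on chromosome 5. The 26 members of this list outside the runs had a median of -0.37.

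The entry gate and the glycosylation steps followed the same direction with fewer calls. Of 25 translocation and signal peptidase genes 22 lay below 0 (median -0.14, 0 called), among them SEC61A1, the pore itself, with 14090, 27363 and 22520 counts (-0.34). N-glycan assembly genes had a median of -0.21 with 1 of 37 called lower, namely MOGS, the first glucosidase to trim the transferred glycan (3647, 5731 and 3938 counts, -0.60), and RPN2, a subunit of the oligosaccharyltransferase, stood at -0.52. Golgi glycosyltransferases had a median of -0.25, with 38 of 41 below 0, 3 called lower and 1 higher. MAN2A1, a Golgi mannosidase, had 5198, 6682 and 3642 counts (-0.94), and its gene lies in the lower run of chromosome 5. The 35 Golgi glycosyltransferases outside the runs had a median of -0.25. ER-associated degradation (median -0.17, 0 of 24 called) and the COPI and COPII coats (-0.11, 1 of 44 called lower) differed less.

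Lysosomal hydrolases and membrane proteins, which travel the same route, had a median of -0.34, and 49 of 53 lay below 0, with 6 called lower and 0 higher. CTSB, the cysteine protease cathepsin B, had 10266, 12284 and 7693 counts (-0.74, interval -0.78 to -0.70), and PSAP, the precursor of the saposins, had 34643, 49181 and 36802 counts (-0.48). By contrast the vacuolar proton pump, which acidifies lysosomes, had a median of -0.04 with 0 of 16 called, Rab GTPases a median of 0.10 with 2 of 49 higher, and sorting nexins and VPS proteins a median of 0.03. Medians of the folding and glycosylation enzymes and of lysosomal proteins were therefore below that of all genes, mostly through differences too small to be called, while those of Rab GTPases and sorting nexins were above it. The lowered lists had been higher in RT than in Ctrl (medians of 0.58 for ER chaperones, 0.77 for lysosomal genes and 0.89 for N-glycan assembly), and because the RT library enters both comparisons, the opposite signs are not independent of each other.

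The same division held over the whole proteome when proteins were sorted by sequence. A segment was called hydrophobic where 19 consecutive residues had a mean Kyte-Doolittle hydropathy of at least 1.6, a window rule that is coarser than a predictor of signal peptides or membrane spans. Proteins whose only such segment lay wholly within the first 35 residues, as in signal peptides, came from 445 genes. Their median log2 ratio was -0.21, and 68.5% of them lay below 0. Of these genes 74 were called lower (16.6%) and 25 higher (5.62%). Proteins with a segment further in, reaching past residue 35, came from 3369 genes with a median of -0.09. Proteins with none came from 7871 genes with a median of 0.02, of which 274 were called lower and 226 higher. The order was kept among genes with a mean of at least 1000 counts, at -0.31, -0.12 and 0.01. It was also kept without the genes of the secretory and surface lists (-0.14, -0.08 and 0.02) and after subtraction of the median of neighbouring genes (-0.18, -0.08 and 0.03).

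Enzymes that modify and cross-link collagen had the lowest median of all lists, -0.53, with 17 of 19 below 0 and 5 called lower. P3H2, a collagen prolyl 3-hydroxylase, had 2847, 6014 and 2384 counts (-1.40, interval -1.47 to -1.33). P3H3 (-0.91), its partner P3H4 (-0.86) and the lysyl hydroxylases PLOD3 (-0.78) and PLOD1 (-0.73) made up the rest of the calls. P3H3 lies in the lower run of chromosome 12 and PLOD3 in a lower run of chromosome 7. Of the 19 genes 5 lay in lower runs, and the 13 outside the runs had a median of -0.53. With the median of neighbouring genes subtracted, the list median was -0.45 and 5 were called lower. TGM2, a transglutaminase and the most abundant member, stood at -0.53 with 39181, 52660 and 38124 counts. Against Ctrl, P3H2 and P3H3 in RT + shHDAC6 were 0.12 and 0.15 higher on the log2 scale, and P3H4 was 0.54 higher.

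Matrix proteins themselves had moved both ways. Of 51 collagens, laminins and matrix glycoproteins 15 were lower and 3 higher. Their median was 0.06, and it turned to -0.20 among members with a mean of at least 200 counts and to -0.08 with the median of neighbouring genes subtracted. COL5A2, a fibrillar collagen chain, had 1766, 1785 and 529 counts (-1.82), and COL6A2, a chain of the microfibrillar collagen VI, had 17525, 23454 and 10544 (-1.22). COL13A1, a collagen anchored in the plasma membrane, went the other way with 135, 72 and 380 counts (2.34, interval 1.97 to 2.72). FBLN1, a glycoprotein of elastic fibres and basement membranes and the most abundant gene of the list, had 21075, 27890 and 31151 counts (0.10). The spread within this list was wider than in any list of the secretory route, with quartiles of -0.71 and 0.24.

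Receptors for matrix had ratios below 0 for the most part. Of 15 integrin chains 13 lay below 0, with a median of -0.34, 4 called lower and 2 higher. ITGA6, the laminin-binding α6 chain, had 46890, 68192 and 40346 counts (-0.82), while ITGB4, the chain that pairs with α6 in hemidesmosomes, had 9774, 3672 and 9653 counts (1.33, interval 1.28 to 1.39). The α6 and β4 chains therefore went in opposite directions, ending 0.16 and 0.36 above Ctrl on the log2 scale. ITGB2, the chain of leukocyte integrins, was higher with 100, 85 and 288 counts (1.70). ITGB1, the common partner chain, had 101204, 125864 and 112096 counts (-0.23).

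Proteoglycans, junction proteins and surface proteases showed some of the largest falls. SDC2, a heparan sulphate proteoglycan of the plasma membrane, had 1775, 2141 and 251 counts (-3.15, interval -3.35 to -2.97). VCAN, the large chondroitin sulphate proteoglycan versican, had 2402, 2431 and 657 counts (-1.95), and GPC6, a glypican held by a lipid anchor, had 137, 200 and 62 (-1.75). CD44, the hyaluronan receptor, was hardly different at 64681 counts in RT and 64753 in RT + shHDAC6 (-0.06). Of 16 tight and gap junction genes 6 were lower and 0 higher (median -0.40). JAM2, an adhesion molecule of tight junctions, had 911, 640 and 151 counts (-2.15), and CLDN1, a claudin, had 1982, 3894 and 1848 (-1.14). Of 27 metalloproteases and inhibitors 9 were lower and 4 higher, from ADAM23 (-1.67), ADAM19 (-1.58) and MMP16 (-1.56) to ADAMTS12 (1.84). These surface genes did not share 1 direction. Cadherins and desmosome proteins had 2 of 21 higher and 2 lower, and over all measured genes falls outnumbered rises as well, at 6.09% against 3.75%.

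Receptors and ligands of the tyrosine kinase class had a median of -0.37, with 10 of 40 lower and 3 higher. KIT, the receptor for stem cell factor, had 560, 1622 and 376 counts (-2.17, interval -2.34 to -2.01), and EPHB2, a receptor for ephrin-B ligands, had 5449, 8627 and 2101 (-2.10, interval -2.17 to -2.03). AXL, the receptor for GAS6 and the most abundant member, had 19099, 39991 and 35626 counts (-0.23), and EPHA2 had 18508, 26734 and 36562 (0.39). HGF, the scatter factor, was higher in spite of its place in the lower run of chromosome 7, with 130, 42 and 93 counts (1.08, interval 0.54 to 1.65). In RT + shHDAC6, AXL and EPHA2 stood 1.27 and 1.36 above Ctrl on the log2 scale, whereas KIT and EPHB2 stood below it.

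TGF-beta targets and BMP feedback genes had a median of -0.26, with 9 of 31 lower and 1 higher. INHBA, which encodes the activin A subunit, had 1345, 3075 and 830 counts (-1.95) in a lower run of chromosome 7, and FST, the activin antagonist follistatin, had 171, 468 and 112 (-2.13). CCN2, a matrix-associated growth factor that is a target of both TGF-beta and YAP-TEAD, had 2726, 6734 and 2127 counts (-1.72, interval -1.80 to -1.65). Among 31 YAP-TEAD targets 4 were lower and 2 higher (median -0.12). F3, the tissue factor that starts coagulation, had 1353, 2106 and 450 counts (-2.29), and its gene lies in the lower run of chromosome 1, as does CCN1 (23992, 65788 and 40243 counts, -0.77). ANKRD1, a YAP-TEAD target found in striated muscle and injured cells, was higher with 396, 854 and 1726 counts (0.95). YAP-TEAD targets therefore did not move as 1 group.

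Of 34 semaphorins, ephrins and guidance cues 6 were lower and 4 higher. The 3 lowest were the secreted class 3 semaphorins SEMA3D (1440, 1434 and 455 counts, -1.72), SEMA3C (4487, 4992 and 1875, -1.47) and SEMA3A (1947, 1677 and 638, -1.46), whose genes lie together on chromosome 7 between 80742538 and 85187056, inside the lower run. Their falls exceeded the median of that run, -0.26. SEMA6B, a membrane-bound semaphorin, was higher with 383, 101 and 359 counts (1.77). In the Wnt and Notch list, 6 of 32 were lower and 4 higher. LGR4, a receptor for R-spondins, was the lowest (-1.13), and FZD8, a Wnt receptor, was among the higher genes (1.35).

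Transporters had a median below that of all genes. Of 166 solute carriers outside the mitochondrial family 19 were lower (11.4%) and 8 higher (4.82%), where all measured genes had 6.09% and 3.75%, and the median was -0.17. SLC38A4, an amino acid transporter, had 520, 415 and 55 counts (-2.98, interval -3.41 to -2.57), and SLC16A7, a carrier of lactate and pyruvate, had 2002, 2626 and 760 (-1.85). The most abundant amino acid transporters were not called. SLC38A2 was below 0 at -0.49 (81280, 96512 and 71908 counts), and SLC7A5 stood at 0.15 (22532, 37031 and 42987 counts). The mitochondrial SLC25 carriers, which never enter the secretory route, had a median of -0.01 with 3 of 39 higher and 0 lower. ABCB1, the multidrug efflux pump P-glycoprotein, had 818, 878 and 110 counts (-3.06, interval -3.36 to -2.77). Its gene is in the lower run of chromosome 7, where its ratio again lay far below that of the region. Among ion channels TRPV2 (-1.92), TRPM2 (-1.90) and KCNJ2 (-1.73) were lower, and KCNN4, a calcium-activated potassium channel, was higher with 3296, 2296 and 5153 counts (1.10).

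Lipid genes showed few calls apart from single enzymes. Sphingolipid and ganglioside enzymes had a median of -0.15, with 4 of 32 lower and 1 higher. UGT8, which makes galactosylceramide, had 1031, 1466 and 314 counts (-2.29, interval -2.47 to -2.11). Phospholipid and triglyceride synthesis had a median of -0.14 (2 of 41 lower, 2 higher). Cholesterol synthesis genes had a median of -0.08 with 0 of 27 called, and fatty acid synthesis of -0.07 with 1 of 24 called higher, SCD5 (0.70). FASN, the fatty acid synthase, had 42031, 34696 and 36997 counts (0.03).

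The clustered protocadherins gave the sharpest local pattern. These adhesion proteins are encoded by tandem genes on chromosome 5, each with its own promoter, from which cells express a small selection. Reading along the beta cluster in order (GRCh38, chromosome 5, 141094606 to 141180539, just beyond the lower run), PCDHB2, PCDHB3, PCDHB4, PCDHB5, PCDHB6, PCDHB7 and PCDHB8 were all called lower, with log2 ratios between -2.82 and -0.91. They summed to 3839, 3569 and 1422 counts. PCDHB6 had 534, 434 and 64 counts (interval -3.23 to -2.44), PCDHB3 had 417, 381 and 78, and PCDHB7 had 226, 224 and 52. From the next gene on, PCDHB16, PCDHB9, PCDHB10, PCDHB13, PCDHB14 and PCDHB15 ranged between -0.58 and 0.15, and 0 of these 6 were called. The step between the groups came at PCDHB8 (364, 338 and 117 counts) and PCDHB16 (729, 632 and 441 counts), of which the latter, at -0.58, just missed the 1.5-fold limit.

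In the gamma cluster downstream, PCDHGA10 was the only measured gene called, and it was higher with 62, 68 and 138 counts (0.96, interval 0.53 to 1.40). The protocadherins outside the clusters included PCDH17, on chromosome 13, with 1195, 970 and 197 counts (-2.36), although chromosome 13 as a whole was higher. The paralogs of the beta cluster are similar in sequence, and how the counting treated reads that match several genes is not given in the sources used here.

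Stretches of at least 3 neighbouring measured genes called in the same direction were found at 27 places, 20 lower and 7 higher. The stretches were listed after the data had been seen. The beta protocadherins formed the longest, with 7 genes. The next was on chromosome 19 from 21932958 to 22532485, where 5 genes in a row were lower with a median of -1.90, among them the KRAB zinc finger genes ZNF208 (238, 254 and 69 counts, -1.94) and ZNF729 (61, 95 and 17 counts, -2.54). ZNF722, ZNF727 and ZNF679 on chromosome 7 (median -1.58) and the cancer-testis genes CT45A1, CT45A10 and SAGE1 on chromosome X (median -1.17) formed other lower stretches. The wider ZNF family was not shifted, with a median of -0.05 and 21 of 429 genes lower and 4 higher. Members of all of these families are near-copies of one another, so their counts are uncertain.

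Replication-dependent histone genes had the highest median of all lists, 0.89, and all 16 that were measured lay above 0, with 12 called higher. These genes make the histones of newly replicated chromatin, and their mRNAs normally end in a short stem-loop in place of a poly(A) tail. The stem-loop was looked for as GG, any 3 bases, TTT, any 2 bases, AG, any 2 bases and CC, in the last 150 bases of the Ensembl canonical transcript, on the sense strand. It was found in 14 of the 16 histone transcripts and in 18 of 11729 measured protein-coding transcripts in all (0.153%). The ends of 5 histone transcripts with the largest ratios or named by level are shown with the stem-loop in capitals, because this ending decides how such an mRNA enters a poly(A)-selected library (GENCODE release 44, GRCh38; H2BC18 is on the minus strand of chromosome 1, the others on chromosome 6, H1-2 on the minus strand and the rest on the plus strand).
H2AC6: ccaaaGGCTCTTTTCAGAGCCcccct
H2BC5: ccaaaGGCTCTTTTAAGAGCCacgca
H2BC18: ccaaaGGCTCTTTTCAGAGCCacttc
H3C10: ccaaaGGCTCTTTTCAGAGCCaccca
H1-2: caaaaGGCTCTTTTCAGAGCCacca

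The 5 genes carried nearly the same element and had low counts in RT. H2AC6 had 823, 227 and 697 counts (1.56, interval 1.34 to 1.78). H2BC5 had 372, 100 and 302 counts (1.53, interval 1.20 to 1.87), and the linker histone gene H1-2 had 794, 287 and 586 (0.97, interval 0.76 to 1.18). H2BC18 and H3C10 stood at 1.28 and 1.21. Against Ctrl, H2AC6, H2BC5 and H1-2 in RT + shHDAC6 differed by 0.13, 0.07 and -0.07, so their levels were close to those of the sample that was not irradiated. The summed CPM of all 50 histone genes in the table was 52.5 for RT and 106 for RT + shHDAC6, and 110.1 for Ctrl. The kit named in the labels selects poly(A) RNA, and a difference in that selection between libraries cannot be told apart from one in histone mRNA. As a sum, the markers of other cell types had the same order over the libraries, with a log2 ratio of summed CPM of 0.39 where the histones had 1.01. The part of these markers in the histone result was not tested.

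Proliferation genes did not go with the histones. Of 44 G1/S and DNA replication genes 0 were called, with a median of -0.01, and of 51 G2/M and mitosis genes 1 was lower, ANLN, the actin-binding protein of the cleavage furrow (13049, 13848 and 9381 counts, -0.62), whose gene lies in a lower run of chromosome 7. Double-strand break response and repair had a median of -0.01 with 0 of 36 called. PRKDC, the catalytic subunit of the end-joining kinase, had 48672, 49071 and 53560 counts (0.06). Among 29 measured p53 targets 1 was called, BBC3, which encodes the pro-apoptotic PUMA (235, 59 and 100 counts, 0.70), and the median was 0.11. Of 40 death receptor, caspase and BCL2 family genes 2 were lower and 1 higher.

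Immediate early genes, which growth factor signals induce within minutes, were higher on balance. Of 28 AP-1 and immediate early genes 22 lay above 0, with a median of 0.34, 5 called higher and 3 lower. FOSB had 419, 252 and 622 counts (1.24, interval 1.03 to 1.46), and EGR1 had 1999, 592 and 1272 (1.04, interval 0.90 to 1.18). FOSL1, the AP-1 subunit with the most counts after irradiation, had 4843, 10288 and 13416 counts (0.32). The 3 lower members were CCN2, CCN1 and IER3, the last with 3510, 1585 and 656 counts (-1.33), and since the summed level of the list is largely that of CCN1, it went from 3442 CPM in RT to 2718 in RT + shHDAC6 although the median was higher. The markers of other cell types had nearly the same median, 0.32, and their part in this difference was not tested. The ERK feedback list had a median of 0.22 (4 of 27 higher, 2 lower). Its phosphatases DUSP5 (1267, 752 and 1506 counts, 0.94) and DUSP4 (693, 288 and 550 counts, 0.87), which switch ERK off, were both higher.

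Inflammatory and interferon genes were divided. NF-kB subunits and targets had a median of 0.14 with 2 of 26 higher, PTX3, a soluble pattern receptor (1.87), and ICAM1, an adhesion ligand for leukocytes (76, 31 and 60 counts, 0.89), and 1 lower, BCL3 (-0.61). Of 15 measured chemokines, interleukins and colony-stimulating factors 4 were higher and 2 lower. CSF3, the granulocyte growth factor, stood apart at 3.25, but with a mean below 100 counts over the 3 libraries. Of 43 interferon-stimulated genes 8 were lower and 1 higher, with a median of -0.15. GBP1, a guanylate-binding protein, had 701, 580 and 134 counts (-2.18, interval -2.46 to -1.90), and its gene lies in the lower run of chromosome 1. IFITM2, which restricts the entry of viruses, had 720, 410 and 1132 (1.40, interval 1.24 to 1.57). Of the 43 interferon-stimulated genes 7 lay in lower runs and 3 in higher runs, and the 33 outside the runs had a median of -0.07. With the median of neighbouring genes subtracted, the list median was -0.14, with 7 lower and 1 higher. MHC class I presentation had a median of -0.33 with 3 of 19 lower, PSMB9, a subunit of the immunoproteasome (-1.35), and the trimming peptidases ERAP1 (-0.80) and ERAP2 (-0.70), both in the lower run of chromosome 5.

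Stress and metabolic programmes showed no common shift. Hypoxia and glycolysis genes had a median of 0.10, with 3 of 38 higher and 3 lower. CA9, the hypoxia-induced carbonic anhydrase, had 371, 14 and 93 counts (2.67, interval 1.85 to 3.60), the largest rise among protein-coding genes with a mean of at least 100 counts, and remained 1.62 below Ctrl on the log2 scale. ANGPTL4, an inhibitor of lipoprotein lipase, had 8318, 4755 and 1245 counts (-2.00). NRF2 targets had a median of 0.02, with AKR1C1, an aldo-keto reductase, lower (2095, 1902 and 718 counts, -1.47) and FTL, the ferritin light chain, higher (23783, 14588 and 23022 counts, 0.60). ATF4 targets had a median of 0.02 and heat shock proteins of -0.04, where HSP90AB1, which encodes a form of the HSP90 chaperone, had 102539, 88919 and 72369 counts (-0.36).

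The genes tied most closely to HDAC6 hardly differed. Of 30 partners of HDAC6 and members of the aggresome route 1 was called, TPPP, a microtubule-binding protein that was also counted among 46 tubulins and tubulin modifiers, where it was again the single call (138, 37 and 120 counts, 1.64, interval 1.09 to 2.21). The tubulin list had a median of -0.08, and TUBA1B, the main α-tubulin gene, had 53921, 52130 and 51187 counts (-0.09). SQSTM1, the autophagy receptor, had a ratio of 0.47, and 0 of 41 autophagy genes were called. Of 58 actin filament genes 3 were lower and 1 higher.

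Epithelial and urothelial identity did not move as a unit. Of 20 keratins and epithelial genes 16 lay above 0 with a median of 0.36, and 3 were higher, ESRP1, a splicing regulator of epithelia (140, 73 and 122 counts, 0.68), ELF3 (0.62) and EHF (0.61). These 3 had at most 154 counts in any library, and the list median lay close to that of the markers of other cell types, 0.32, whose part in it was not tested. KRT7, a simple epithelial keratin with 3533, 3854 and 597 counts, was lower by far (-2.75, interval -2.88 to -2.63). GATA3 and PPARG, transcription factors of luminal urothelium, were both lower, GATA3 with 2320, 1423 and 709 counts (-1.07) and PPARG with 1298, 650 and 352 (-0.95), against 2 of the 12 luminal genes that were higher. GATA3 lies in the higher run of chromosome 10. Among 21 mesenchymal markers 4 were lower, CDH2, which encodes N-cadherin (6788, 8613 and 4379 counts, -1.04), TAGLN (-1.01), SNAI2 (-0.91) and FOXC2 (-0.63), and 0 were higher, while VIM stood at 0.31.

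Gene expression machinery stayed close to the median of all genes. Splicing factors (44 genes), hnRNP and SR proteins (36), mRNA decay and nuclear export (45), translation factors (42), cytosolic tRNA synthetases (23) and tricarboxylic acid cycle genes (24) had 0 calls each and medians between -0.02 and 0.05. SRRM2, a spliceosomal scaffold, had 66309, 71614 and 72545 counts (-0.04), and EEF1A1, the translation elongation factor, had 283303, 165187 and 162623 (-0.08). Cytosolic ribosomal proteins were slightly higher, with a median of 0.10 and 67 of 84 above 0. The 2 that were called were RPL39L, a testis-enriched paralog (0.70), and RPL24 (9743, 5658 and 10368 counts, 0.81, interval 0.76 to 0.86). RPL24 stood out from the other abundant ribosomal genes, and it lies in the higher run of chromosome 3 between ZBTB11-AS1 and CEP97, which were higher as well in a stretch with a median of 0.80. Proteasome subunits had a median of -0.03 and complex I subunits of 0.01, and the 13 mitochondrially encoded mRNAs had a median of -0.22 with 0 called.

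The largest falls among protein-coding genes with a mean of at least 100 counts were those of STK32A, a kinase (294, 108 and 9 counts, -3.65), SDC2, ABCB1, SLC38A4 and ANO5, a protein of the anoctamin family (684, 650 and 92 counts, -2.88). They were followed by PCDHB6, KRT7, SLCO6A1, PLCXD3, CHSY3, OSCAR, SPINK5, CALB1, LGSN and PLA2R1, down to -2.61. The largest rises after CA9 and COL13A1 were those of CES1, a carboxylesterase (79, 77 and 332 counts, 2.05), DMBT1, a mucin-like secreted protein (2.01), and NTSR1, the neurotensin receptor (1280, 433 and 1799 counts, 1.99). LSR, a receptor of tricellular junctions, had 667, 706 and 2893 counts (1.97), and WLS, which carries Wnt proteins to the surface, had 1311, 1371 and 5080 (1.83). ZNF704, CLMP, PTX3, ZDHHC11, NPTX1, SEMA6B, KCTD15 and HOXD10 completed the 15, down to 1.71. Against Ctrl, LSR and WLS were higher by 2.49 and 2.33, whereas NTSR1 was higher by 0.86.

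Long non-coding RNAs were called more often than protein-coding genes in both directions. Of 938 measured, 69 were higher (7.36%) and 102 lower (10.9%), against 3.50% and 5.49% of 11729 protein-coding genes, but they also have fewer counts. Among those with a mean of at least 100 counts, LINC01583 (397, 258 and 34 counts, -2.99), LINC02474 (346, 265 and 35, -2.98) and ENSG00000250920 (277, 224 and 31, -2.92) were lowest, and ENSG00000224715 was highest (330, 124 and 822, 2.67). Processed pseudogenes, copies of mRNAs, had 4 of 405 higher and 31 lower.

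The share of genes called differed with level, base composition and some promoter motifs. When protein-coding genes were divided into 5 equal classes by their level in Ctrl, the lowest class held 285 of the 411 higher and 243 of the 644 lower calls, and the highest held 12 and 76. Because the count minimum was a mean over the 3 libraries, a gene low in Ctrl could enter through a high count in an irradiated library. The lowest class also had the fewest counts, and so the widest counting error. Classes by the GC content of the transcript went from 46 higher and 141 lower calls at the lowest GC to 153 and 90 at the highest. The 5 classes by exon length held between 72 and 89 higher and between 107 and 145 lower calls each, with no such order. Among measured genes with a RefSeq promoter (GRCh38.p14, from 250 bases before to 50 after the start, both strands searched), the 527 with a TATAAA box were called higher in 6.83% and lower in 7.40%, against 3.08% and 5.13% of genes without it. The 1944 with the ETS site CCGGAAG, a motif of housekeeping promoters, were called in 0.874% and 2.47%, against 3.90% and 5.96%. Of 8 motifs searched, the AP-1 site TGACTCA and the NRF1 motif GCATGCGC differed as well. Genes with the AP-1 site were called higher in 6.64% and lower in 8.86%, against 3.19% and 5.15% without it. With the NRF1 motif the shares were 0.548% and 2.93%, against 3.45% and 5.39% without it. The CCAAT box, in 3590 measured genes, made little difference (3.12% and 5.13% with it, 3.38% and 5.33% without). The TATAAA box occurs in 11.95% and CCGGAAG in 10.7% of all 27305 promoters, and a match of letters is a description only.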

How the data were processed

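RNA from T24 cells was sequenced in 3 libraries, 1 per condition, so samples could be grouped only by their labels and had no replicates. The authors deposited 1 table of whole-number read counts per gene, not normalised. Per the labels' processing notes the reads were trimmed with cutadapt and aligned with STAR (2.6.1a), while the text of the study names another STAR release and another library kit than the labels. The counting settings for strand and for reads that match several genes are not given in the sources used here. No other columns of per-sample values were in the table (0 columns).

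Gene identifiers were matched to GENCODE release 44 (57754 of 58381 IDs). Counts were scaled with TMM (edgeR 4.0.16 in R 4.3.3), and log2 ratios were computed in Python 3.11.15 with numpy 2.4.6, pandas 2.3.3 and scipy 1.17.1, with 0.5 in place of a count of 0. Genes with a mean of at least 50 counts over the 3 libraries were kept, and those at least 1.5-fold apart were called. No test was made. The scripts were tested on simulated counts. Figures were drawn with matplotlib 3.10.9.

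Genes were named by rule: the deacetylases, up to 4 called members of each list with the largest ratios and up to 2 with the highest level, the 15 largest rises and falls of protein-coding genes with a mean of at least 100 counts, the 3 largest of each other biotype, and the markers of cell types. Other named genes were chosen after their values were seen. The members and lists were chosen with earlier results of these data known. Alternatives were other scalings, including the size factors of DESeq2 (1.42.0), other count minimums and fold limits, and the NOISeq procedure for single libraries, written anew here, at a probability of 0.4. Runs of windows and stretches of neighbouring genes were examined after the data were seen. One of the markers is not reported here.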

Additional observations from a re-analysis of the deposited data

How the results depend on the processing

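Counts of calls (511 higher and 830 lower) stayed within 1.5 times with other scalings (491 to 708 higher and 673 to 859 lower) and moved with the limits. At a minimum mean count of 10 there were 1679 higher and 1767 lower genes, at one of 200 there were 216 and 497, and 6957 and 6646 without any minimum. At 2-fold 142 and 338 remained, with the counting interval wholly past 1.5-fold 186 and 460, and the NOISeq procedure called 4706 and 5311 of all genes with a count, and 3120 and 4024 of the measured genes. Of 724 values of 125 medians under the alternatives, 51 moved by more than the counting error of a typical member, 34 of them with library totals only, and 4 were reversed, meaning that a median at least 0.1 from 0 changed sign: serpins at a mean of at least 200 counts (-0.083), small nucleolar RNAs at 10 (0.057) and 200 (0.10), and small nuclear RNAs at 10 (-0.0096). Medians nearer 0 also changed sign, for collagens from 0.06 to -0.20 at 200 and for chemokines from -0.06 to 0.23 at 10. At 10 counts integrin chains went from -0.34 to -0.19, receptor tyrosine kinases from -0.37 to -0.22 and Wnt and Notch genes from -0.18 to -0.02. The cause was not tested. Of 1329 values of 443 named genes 0 were counted as reversed. Ratios just below 0, such as those of SRRM2 and CD44, did change sign with library totals only, which moved every ratio up by 0.084. With the medians of neighbouring genes subtracted, an alternative added after seeing the data, 511 and 754 genes were called, and without the chromosomal runs 418 and 631. No library could be left out, because each condition had 1. No paired analysis was possible because the groups have 1 library each. Depth limits genes near 50 counts most: the median width of the counting interval over measured genes was 0.26 on the log2 scale.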
